A study of Mus musculus with 9 samples.

Results

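Serine tRNAs carry the amino acid serine to the ribosome, and in serum they are met as short fragments. The members described here are the reads whose every alignment was on a mature, nuclear-encoded serine tRNA reference, named Ser-AGA, Ser-CGA, Ser-GCT, Ser-TGA or Ser-GGA by their anticodons. They comprised 838 distinct sequences with 6692 reads, of 41240 distinct sequences and 555585 reads in all, which is 1.20% of the reads on tRNA references and 1.67% of those on mature nuclear tRNAs. Reads that also aligned to another tRNA or to a precursor were not members.

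The libraries were made from mouse blood serum, labelled week 20 and atherosclerosis, in a study of salvianolic acid B (SalB), a phenolic compound from the root of Salvia miltiorrhiza. There were 3 groups of 3 libraries each. Mice of the first were fed a normal diet, those of the second a high fat diet, and the third group, called SalB here, received SalB besides the high fat diet. The titles of the normal diet libraries carry the strain name C57, which no other title does. The sources used here give neither the strain of the other groups nor the dose, so diet and strain cannot be told apart in comparisons with the normal diet. The titles of the SalB libraries carry the letters DSF, which the labels do not explain. Whether the replicates were separate animals is not stated, and p-values therefore rest on a spread that may be technical. Serum holds RNA from many tissues, and no marker of a source cell is measured in reads on tRNAs.

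A tRNA folds into a cloverleaf with an acceptor stem, a D arm, an anticodon arm, a variable arm and a T arm, and ends in the bases CCA, which are added after transcription. Serine tRNAs are unusual in their long variable arm, a feature shared with leucine and selenocysteine tRNAs, and serine tRNA synthetase reads that arm and not the anticodon. Serine has codons in a pair of unrelated codon boxes: Ser-GCT tRNAs read the codons that start with AG, and Ser-AGA, Ser-CGA and Ser-TGA tRNAs those that start with TC. Enzymes such as angiogenin, Dicer and other ribonucleases cut tRNAs in or near their loops. A cut in the anticodon loop gives long fragments known as tiRNAs, and cuts near the D loop and the T loop give shorter 5′ and 3′ fragments.

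Of 14 mature serine references, 7 could be read in full from the alignments. A GCT and an AGA reference are shown because the fragments of these isoacceptors had different ends in every library. The capitals mark the anticodon at positions 34 to 36 and an adenosine of the T loop at position 67, a base that carries a methyl group in many tRNAs. The first base of the mature tRNA is position 1.
Ser-GCT-4-1: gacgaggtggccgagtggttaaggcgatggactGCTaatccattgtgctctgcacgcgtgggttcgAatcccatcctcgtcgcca
Ser-AGA-1-1: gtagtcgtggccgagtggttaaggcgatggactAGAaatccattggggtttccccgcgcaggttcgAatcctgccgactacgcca
Both are 85 bases long and differ at 21 positions (75.3% identity). The Ser-TGA-2-1 reference differs from Ser-AGA-1-1 only in the anticodon (A34T, the base of Ser-AGA-1-1 first), so that a fragment which does not hold position 34 cannot be assigned to either. Such reads form the set AGA/TGA. RefSeq (GRCm38.p6, the mm10 build) lists 22 nuclear serine tRNA genes, of which 8 are Ser-GCT, 7 Ser-AGA, 3 Ser-TGA, 3 Ser-CGA and 1 Ser-GGA, and 12 of the 22 lie on chromosome 13. Locus names and reference names could be matched only by anticodon, so no fragment was assigned to a locus.

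The members fell on the isoacceptors unevenly. GCT reads numbered 3688 and AGA/TGA reads 2318, followed by CGA with 391, TGA with 166, GGA with 72 and AGA with 25. The other 4 sets, each shared by several anticodons, held 23, 6, 2 and 1 reads. By place in the tRNA, 3841 reads were 3′ fragments (ending in the CCA tail), 2237 were 5′ fragments (starting at the first base) and 614 were internal. Reads of 18 bases made up 33.7%, of 21 bases 23% and of 22 bases 17.3%, and 74 reads of 6692 had 30 bases or more. Reads as long as a tiRNA were therefore few, in libraries that were selected for size on a gel.

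The 12 serine sequences of highest mean level came from 3 places. They are shown, with a TGA fragment added, so that their ends can be compared. Capitals mark the T-loop adenosine and any base that differs from the reference, with substitutions counted on the tRNA (reference base, position, base read).
GCT 3′, positions 64 to 85: tcgAatcccatcctcgtcgcca
GCT 3′, positions 64 to 84: tcgAatcccatcctcgtcgcc
GCT 3′, positions 64 to 84, C84T: tcgAatcccatcctcgtcgcT
GCT 3′, positions 64 to 84, C84A: tcgAatcccatcctcgtcgcA
GCT 3′, positions 64 to 85, A85G: tcgAatcccatcctcgtcgccG
AGA/TGA 3′, positions 64 to 85: tcgAatcctgccgactacgcca
GCT 3′, positions 68 to 85: atcccatcctcgtcgcca
AGA/TGA 3′, positions 68 to 85: atcctgccgactacgcca
TGA 3′, positions 68 to 85: accctgctcgctgcgcca
GCT 5′, positions 1 to 18: gacgaggtggccgagtgg
AGA/TGA 5′, positions 1 to 18: gtagtcgtggccgagtgg
AGA/TGA 5′, positions 1 to 16: gtagtcgtggccgagt
CGA 5′, positions 1 to 18: gtcacggtggccgagtgg
The fragments from position 64 hold the T-loop adenosine, and those from position 68 start at the base after it.

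The 3′ fragments of GCT and of the other serine tRNAs began at different bases. Among GCT 3′ reads, 2463 of 2777 started at position 64, and the share ran from 86.1% to 93.8% over the 9 libraries (median 88.2%). Among AGA/TGA 3′ reads the same start took 165 of 766, from 14.5% to 34.5% (median 21.4%). The CGA share ran from 7.32% to 40.0% (30 of 153 reads) and the TGA share from 0% to 12.5% (1 of 141 reads). The range of GCT did not overlap that of any of these sets.

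Position 68, the base after the T-loop adenosine, was the usual start in the other sets. It opened 446 of 766 AGA/TGA 3′ reads (40.0% to 65.1% over libraries), 91 of 153 CGA reads and 125 of 141 TGA reads, against 200 of 2777 GCT reads (2.33% to 11.4%). Within a library, the share of 3′ reads from position 64 was higher in GCT than in AGA/TGA by 65.3 ± 6.67 percentage points (SD, n = 9 libraries), in 9 of 9 libraries. The exact sign-flip permutation test, two-sided, gave p = 0.00390625, the smallest that 9 libraries allow, and 0.00439 after Benjamini-Hochberg adjustment over 9 such tests. The differences from CGA (67.5 ± 9.36 points) and TGA (87.1 ± 4.94 points) had the same p. These measures were chosen after earlier results of these data were known, and the CGA and TGA shares rest on as few as 5 and 8 reads in a library.

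**Figure D1:**
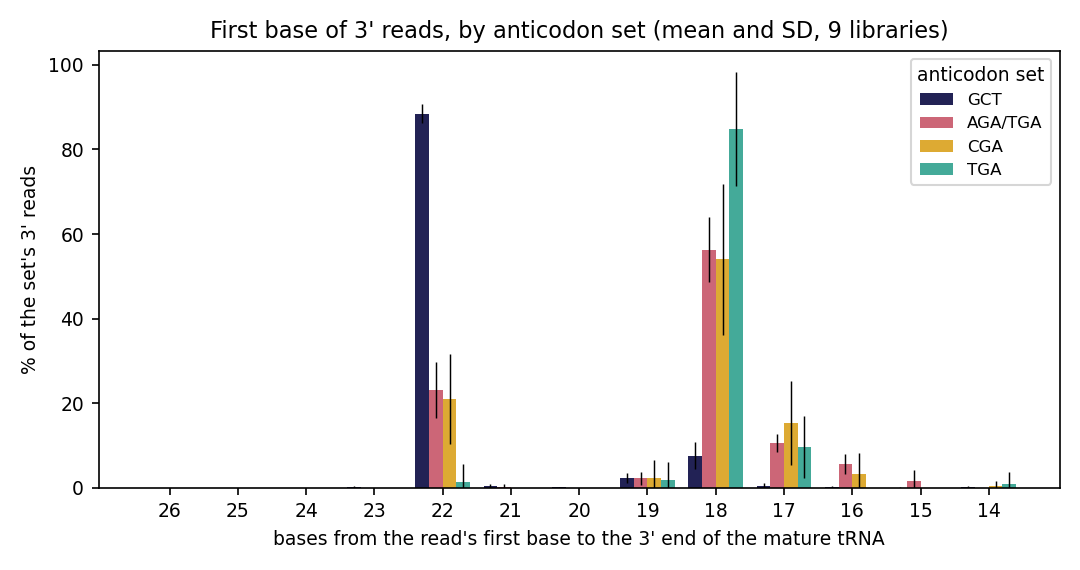
Share of the 3′ reads of each serine anticodon set (vertical axis, percent) by the number of bases from the first base of the read to the 3′ end of the tRNA (horizontal axis). Bars are means over 9 libraries and lines the SD, which stop at 0. GCT reads peak at 22 bases (start at position 64) and the other sets at 18 bases (start at position 68).

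The same 22-base start was common in some other tRNAs. Among 35 family sets with at least 300 3′ reads, Ser-GCT stood at place 5 by the pooled share of reads starting 22 bases before the end, at 88.7%. The initiator methionine tRNA stood first with 97.3%, and Ser-AGA/TGA stood at place 19 with 21.5%.

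The 3′ ends differed as well. Reads to the last base of the tail, position 85, made up 39.4% to 46.5% of GCT 3′ reads (1185 of 2777), and 67.5% to 93.3% of AGA/TGA 3′ reads (668 of 766). They made up 55.6% to 100% of CGA and 54.1% to 100% of TGA reads. Within libraries, GCT minus AGA/TGA was -43.6 ± 8.71 points (SD, n = 9), lower in 9 of 9 libraries (exact sign-flip permutation p = 0.00390625, adjusted 0.00439). The pooled full-end share of GCT, 42.7%, was the third lowest of the 35 sets. Differences of GCT from CGA and from TGA (-35.4 ± 14.7 and -31.6 ± 13.4 points) had the same sign in 9 of 9 libraries.

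Most GCT reads that stopped short of position 85 ended 1 base earlier, on the second base of the tail. Many of these carried another base at that place. The substitution C84T was met in 463 GCT reads and C84A in 184, and A85G stood at the last base of 102. Substitutions at the last base of the read made up 11.2% to 34% of the reads of the 4 main sets over libraries (1353 of 6563). Reads with up to 1 mismatch were listed in the deposited alignments, in which an added base and a sequencing error cannot be told apart.

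The 5′ fragments were a smaller share of GCT reads than of AGA/TGA or CGA reads. Their share ran from 6.01% to 25.9% in GCT (541 of 3688), from 30.1% to 89.0% in AGA/TGA (1463 of 2318) and from 44.4% to 72.7% in CGA (217 of 391). GCT minus AGA/TGA was -29.3 ± 19.2 points and GCT minus CGA -44.2 ± 12.7 points (SD, n = 9), lower in 9 of 9 libraries (exact sign-flip permutation p = 0.00390625, adjusted 0.00439). For TGA reads, where 15 of 166 were 5′ fragments, the difference of 6.16 ± 11.3 points did not pass (exact sign-flip permutation p = 0.141, and adjusted p = 0.0469 without SalB replicate 1). Reads of 5′ fragments that TGA shares with AGA are counted in the AGA/TGA set, which limits this comparison. With each distinct sequence counted once, the 8 differences that had passed kept their direction and passed again, but were smaller. GCT minus AGA/TGA was then 39 points for starts at position 64 and -23.3 points for reads to position 85, and GCT minus CGA was 41.4, -16.8 and, for 5′ reads, -17.6 points. GCT minus TGA was -16.3 points for reads to position 85 (largest adjusted p of these 0.0352, exact sign-flip permutation).

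Their usual last base was position 18, in the D loop. It ended 209 of 217 CGA 5′ reads (86.7% to 100% over libraries), 925 of 1463 AGA/TGA reads (45.5% to 80.0%) and 314 of 541 GCT reads (31.6% to 80.0%). The 5′ read of 33 bases of GCT, which ends just before the anticodon, was seen 11 times.

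**Figure D2:**
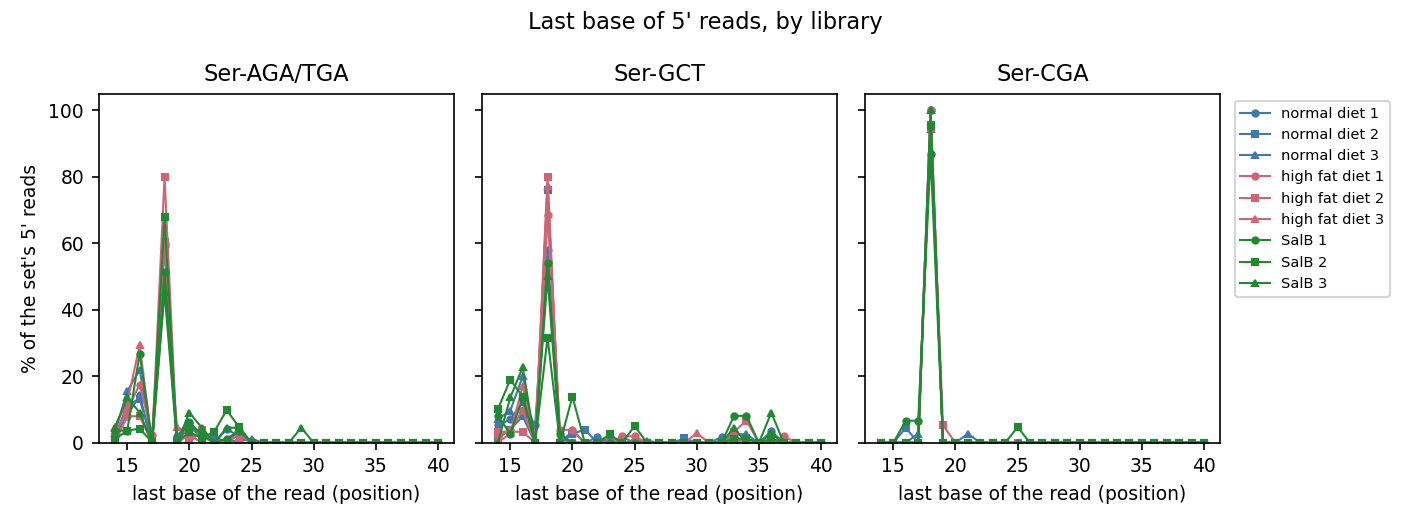
Last base of 5′ reads (horizontal axis, position in the tRNA) as a share of the 5′ reads of each set (vertical axis, percent), 1 line per library. Every library peaks at position 18 in the 3 sets, and SalB replicate 2 has a further AGA/TGA peak at position 23.

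Serine levels were then compared between the groups. Levels are given as normalised CPM, read counts on tRNA references divided by a library size that was adjusted with trimmed means of M values. The serine total stood at 11970, 13544 and 11622 on the normal diet, at 7894, 9908 and 8513 on the high fat diet, and at 14832, 28850 and 10883 with SalB (replicates 1, 2 and 3). Each high fat diet library lay below every library of both other groups. SalB replicate 2 stood well above all other libraries. In serum, fewer source cells and less RNA per cell cannot be told apart.

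Against the high fat diet alone, SalB libraries had a higher serine total, with a log2 fold change of 0.94 (SE 0.32, limma-voom adjusted p = 0.0384). Each of the 56 isotype sums tested held the reads that aligned to 1 amino acid and kind alone, or to 1 mix of them. Of these sums, 42.9% were called in this comparison, and the groups did not overlap in 50% of them, serine included. The median log2 fold change of all 56 sums was 0.80, so that serine lay 0.14 above the median sum. Scaling by total reads moved the median of all sums to -0.07 and the serine value to 0.09 (adjusted p = 0.839). Without SalB replicate 2 the value was 0.62 (adjusted p = 0.0270), and leaving out any 1 library of the normal or high fat diet ended the call (adjusted p from 0.0698 to 0.147).

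High fat diet against normal diet gave -0.49 for the serine total (SE 0.32, limma-voom adjusted p = 0.983), and 0 of the 56 isotype sums were called (0%, 3 at an unadjusted p under 0.05, and the serine total not called by limma on log2 values either). The groups did not overlap, as was the case for 17.9% of the sums. SalB against normal diet gave 0.45 (SE 0.32, adjusted p = 0.267, and 0.85 with adjusted p = 0.0311 without SalB replicate 3) with overlapping groups, where 55.4% of the sums were called, 50% did not overlap and the median was 0.88. Each group enters 2 of the 3 comparisons, which therefore share libraries.

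**Figure D3:**
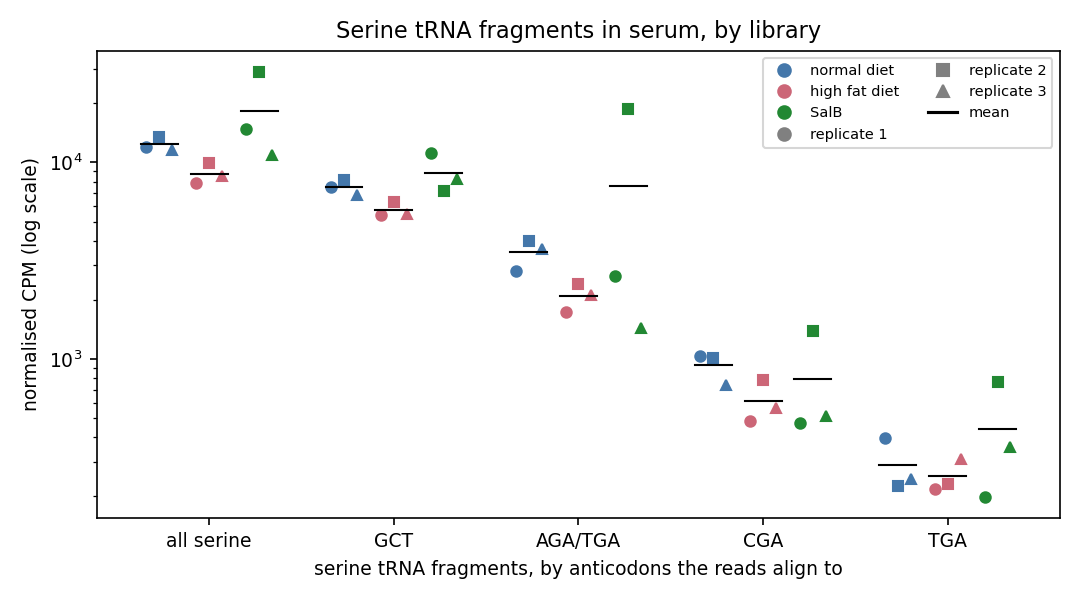
Normalised CPM (vertical axis, log scale) of all serine fragments and of the 4 main anticodon sets, by library. Points are libraries, coloured by group and shaped by replicate, and black lines are group means. High fat diet libraries lie lowest in the serine total, and SalB replicate 2 stands apart in AGA/TGA.

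Measures within a library do not depend on the scaling. Serine reads made up 1.62 ± 0.109% of the reads on mature nuclear tRNAs on the normal diet, 1.20 ± 0.145% on the high fat diet and 2.05 ± 0.542% with SalB (SD, n = 3). The exact permutation test over 280 partitions gave p = 0.05, and 0.183 adjusted over 11 shares, so the difference did not pass. In single libraries the share had Wilson 95% intervals such as 0.986% to 1.17% in high fat diet replicate 1 and 2.47% to 2.71% in SalB replicate 2, which cover counting error only.

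Leucine tRNAs, which also have a long variable arm, served as the nearest comparison. The ratio of serine to leucine reads was 0.187, 0.243 and 0.216 on the normal diet, 0.189, 0.210 and 0.222 on the high fat diet, and 0.374, 0.437 and 0.304 with SalB. All SalB libraries lay above all others. The exact permutation test over 280 partitions gave p = 0.0286, and 0.0714 adjusted over 5 ratios. SalB against high fat diet alone gave an exact permutation p = 0.1, the smallest that 3 libraries against 3 allow, with a mean log2 difference of 0.83. With SalB, the leucine sum itself had log2 fold changes of 0.12 against the high fat diet and -0.33 against the normal diet, neither called. The medians of all isotype sums were 0.80 and 0.88, so leucine lay below the median sum in both comparisons. Whether other isotypes rose over leucine to a like degree was not tested. The ratio of serine to all other mature nuclear reads was 0.0108 to 0.0137 on the high fat diet, 0.0152 to 0.0175 on the normal diet and 0.0152 to 0.0265 with SalB (exact permutation p = 0.0179, adjusted 0.0714). Without SalB replicate 3 both ratios passed over the 3 groups (exact permutation, adjusted p = 0.0476 and 0.00893), as did the serine share of mature nuclear reads (adjusted p = 0.0393). That share and the ratio to all other reads come from the same counts, so they are not separate results. With each distinct sequence counted once, SalB minus high fat diet was 0.22 for the log2 ratio to leucine, 0.14 for that to all other reads (0.76 by reads) and 0.218 points for the share (0.855 by reads).

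By origin, the serine to leucine ratio of 3′ fragments was 0.387 and 0.420 in SalB replicates 1 and 3, and 0.164 in replicate 2, against 0.155 to 0.188 in the other libraries. For 5′ fragments it was 2.94 in SalB replicate 2, 1.35 in replicate 1 and 0.573 in replicate 3. The SalB libraries thus differed among themselves in the origin whose ratio was high. None of the 3 origin ratios passed (exact permutation, adjusted p from 0.274 to 0.604), though the 5′ ratio did without SalB replicate 3 (adjusted p = 0.00893).

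**Figure D4:**
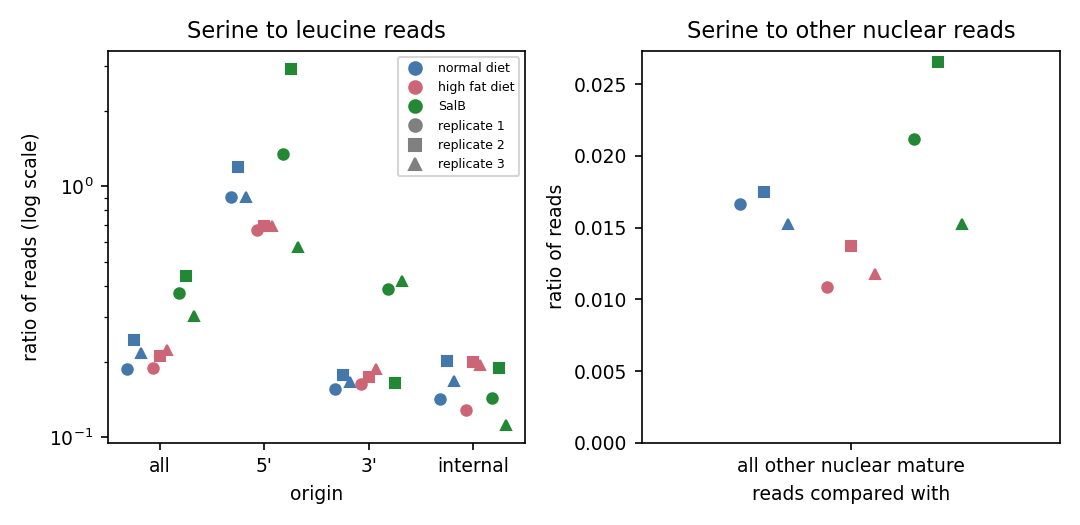
Ratio of serine to leucine reads in all and by origin (left, log scale) and of serine to all other mature nuclear tRNA reads (right, linear scale from 0), by library, coloured by group and shaped by replicate. SalB libraries lie highest in the ratio to leucine over all origins, and high fat diet libraries lie lowest in the ratio to all other reads.

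Each isoacceptor was compared between the groups in turn. The GCT set stood at 7516, 8166 and 6839 normalised CPM on the normal diet, at 5384, 6315 and 5439 on the high fat diet, and at 11183, 7183 and 8194 with SalB. SalB and high fat diet libraries did not overlap, as in 49.5% of the 103 sets tested. The log2 fold change was 0.61 (SE 0.22, limma-voom adjusted p = 0.0548) and did not pass, and the median over all sets was 0.62. Without SalB replicate 2 the set was called (0.82, adjusted p = 0.00870), and with total reads as the scale its direction turned (-0.29).

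AGA/TGA stood at 2819, 3998 and 3647 on the normal diet and at 1736, 2404 and 2128 on the high fat diet. With SalB it stood at 2632, 18720 and 1434. The log2 fold change of SalB against high fat diet was 1.01 (SE 0.78, limma-voom adjusted p = 0.321), and -0.03 without replicate 2. The high AGA/TGA mean of the SalB group rests on 1 library.

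CGA stood at 1033, 1014 and 737 on the normal diet, 482, 782 and 564 on the high fat diet, and 472, 1389 and 512 with SalB. TGA stood at 395, 225 and 246 on the normal diet, 219, 232 and 309 on the high fat diet, and 199.7, 762 and 358 with SalB. In both sets the SalB and high fat diet libraries overlapped, with log2 fold changes of 0.28 (SE 0.44) and 0.60 (SE 0.50), which turned to -0.59 and -0.27 when scaled by total reads. Of the 4 serine sets that passed the filter on low values, 0 were called by limma-voom in any of the 3 comparisons. At an unadjusted p under 0.05, only GCT was met, in SalB against high fat diet, which limma on log2 values called. Among all 103 sets, 34% were called for SalB against high fat diet, 36.9% for SalB against normal diet (45.6% without overlap) and 0% for high fat diet against normal diet (19.4% without overlap).

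The GGA reads are a separate case. The Ser-GGA reference is 76 bases long, shorter than the other serine references that were read in full, and 1052 of the 1144 reads on it also aligned to phenylalanine tRNA. The 72 reads that met no other tRNA numbered 3, 2 and 7 on the normal diet, 1, 4 and 3 on the high fat diet and 11, 32 and 9 with SalB, and did not pass the filter. Their share of serine reads was 0.478 ± 0.0663%, 0.665 ± 0.493% and 1.78 ± 0.395% (SD, n = 3, exact permutation p = 0.025, adjusted 0.138). All 3 SalB libraries lay above all others. The most frequent GGA read, at positions 38 to 56, held 15 reads and was seen in the SalB libraries alone, 2, 9 and 4 times. It was picked from a set whose reads came mostly from SalB libraries, so its absence elsewhere is no separate result. How many of all sequences were met in SalB libraries alone was not counted.
GGA internal, positions 38 to 56: atctaaaggtccctggttt
RefSeq places the GGA gene, n-TSgga1, on chromosome 11 from 100538158 to 100538230. Whether these reads stem from a serine or a phenylalanine tRNA variant cannot be told from them.

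Sums by origin were tested in a table of 94 sums, each of 1 isotype or mix of isotypes and 1 origin. Serine internal reads stood at 921, 1098 and 1055 normalised CPM on the normal diet, at 817, 898 and 800.3 on the high fat diet and at 1325, 2406 and 1639 with SalB. All SalB libraries were above all others. With this scaling, internal reads rose with SalB against high fat diet (log2 fold change 1.05, SE 0.28, limma-voom adjusted p = 0.0163) and against normal diet (0.76, SE 0.27, adjusted p = 0.0393). Scaling by total reads gave 0.15 (adjusted p = 0.81) and -0.072 (adjusted p = 0.873), and both calls were also lost with no filter or with only the 6 libraries compared. Of all such sums, 40.4% and 52.1% were called in these comparisons, 54.3% did not overlap in either, and the median changes were 0.70 and 0.75. Leucine internal reads also rose (1.28, adjusted p = 0.00557, and 0.98, adjusted p = 0.0152). Leaving out any 1 high fat diet library ended both serine calls, with adjusted p from 0.0623 to 0.0948, as did leaving out any 1 normal diet library for the second. Serine internal reads are a mixed class. The sum includes 68 GGA reads, with means of 58.8 normalised CPM on the normal diet, 61.7 on the high fat diet and 299 with SalB. These were not sorted by start. Of the 546 other internal reads, 242 began at positions 34 to 50. A further 166 began at positions 63 to 68 and ended before the tail, such as the GCT read from 64 to 82 (77 reads). Those from positions 2 to 33 numbered 109, of which 49 were in SalB replicate 2.

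Serine 3′ fragments stood at 7997 ± 639.7 on the normal diet, 6050 ± 763 on the high fat diet and 8849 ± 1897 with SalB (SD, n = 3). SalB against high fat diet gave a log2 fold change of 0.54 (SE 0.24, limma-voom adjusted p = 0.0982), with groups that did not overlap. Without SalB replicate 2 the 3′ sum was called (0.69, adjusted p = 0.0318), and scaling by total reads turned it to -0.31. Serine 5′ fragments stood at 3357 ± 836 on the normal diet, 1883 ± 228 on the high fat diet and 7549 ± 9732 with SalB (1.15, SE 0.78, adjusted p = 0.237), where replicate 2 alone reached 18770. Against the normal diet, the high fat diet libraries were lower without overlap in all 3 origins, and 0 of the 3 were called (limma-voom, 0 also at an unadjusted p under 0.05 and 0 by limma on log2 values, with 0% of all 94 sums called and 21.3% not overlapping).

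Origins within the isoacceptors showed where SalB replicate 2 stood apart. The AGA/TGA 5′ fragments numbered 983 reads in that library, against 22 to 168 in the other 8, and made up 89.0% of its AGA/TGA reads, against 30.1% to 56.6%. Its 18-base form, gtagtcgtggccgagtgg, numbered 570 reads of 754 in all, and the forms that reach positions 23 and 24 numbered 75 of 78 and 39 of 46.
AGA/TGA 5′, positions 1 to 23: gtagtcgtggccgagtggttaag
AGA/TGA 5′, positions 1 to 24: gtagtcgtggccgagtggttaagg
In the same library GCT 5′ reads numbered 79 and made up 18.6% of GCT reads, within the range of the other libraries. This library also had the most reads on tRNA references, 156333 against 28191 to 94724, and the lowest scaling factor, 0.378 against 0.885 to 1.24. The part of these properties in the AGA/TGA value was not tested.

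**Figure D5:**
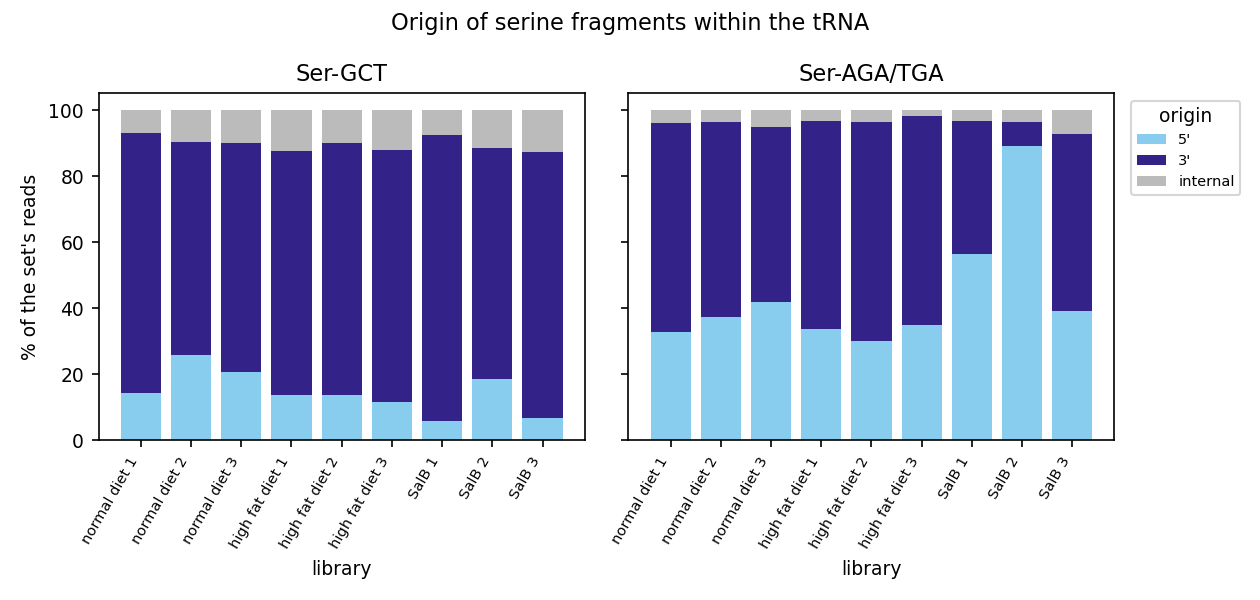
Share of 5′, 3′ and internal reads (vertical axis, percent) among GCT reads (left) and AGA/TGA reads (right) in each library. The 5′ share of AGA/TGA is 89.0% in SalB replicate 2 and 56.6% or less elsewhere, and GCT reads are mostly 3′ in all libraries.

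Leaving out SalB replicate 2 turned several shares. The AGA/TGA share of serine reads with SalB was 31.9 ± 28.6% with it, against 23.8 ± 1.57% on the high fat diet, and the SalB minus high fat diet difference was 8.18 points with it and -8.29 points without. The GCT share was 75.4% and 75.3% in SalB replicates 1 and 3 and 24.9% in replicate 2, against 58.8% to 68.2% in the other groups. Without replicate 2, the SalB mean of the GCT share was 10.1 points above that of the high fat diet, and the exact permutation test over all 3 groups passed (p = 0.00357, adjusted 0.0393 over 11 shares), where with it the adjusted p was 0.975. SalB against high fat diet alone cannot reach a p under 0.1 in such a test. CGA made up 3.18% to 4.82% of serine reads with SalB and 6.10% to 8.63% elsewhere, without overlap, but did not pass (exact permutation p = 0.0214, adjusted 0.138). None of the 11 shares passed with all 9 libraries.

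At the level of single sequences, 10 of the 838 passed the filter and held 3546 of the 6692 reads (53.0%). The other 828 could not be tested, and 483 of the 838 were seen once. The 10 are the sequences with enough reads in at least 3 libraries, so their counts describe no other member. One of them was called in SalB against high fat diet and in SalB against normal diet, where 33.4% and 37.7% of all 733 sequences were called, and 50.2% and 49.4% did not overlap. For high fat diet against normal diet 0 of 10 and 0% of 733 were called by limma-voom (1 of 10 and 91 of 733 at an unadjusted p under 0.05, and 0 of 10 by limma on log2 values), and 23.9% of all did not overlap.

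The called sequence was the GCT 3′ fragment tcgAatcccatcctcgtcgcA, which stops at position 84 with C84A. It stood at 395, 113 and 200.1 normalised CPM on the normal diet, at 248, 174 and 200.1 on the high fat diet and at 763, 542 and 410 with SalB (4 to 42 reads a library). All SalB libraries were above all others. The log2 fold changes were 1.35 against high fat diet (SE 0.44, limma-voom adjusted p = 0.0347) and 1.29 against normal diet (SE 0.43, adjusted p = 0.0335). The first call was lost without any 1 high fat diet library or SalB replicate 1 or 2 (adjusted p from 0.0517 to 0.137). The second was lost without any 1 high fat diet library, normal diet replicate 2 or 3, or SalB replicate 1 (adjusted p from 0.0574 to 0.151). Both were lost when scaled by total reads (0.47 and 0.49, adjusted p = 0.543 and 0.515) and with no filter (adjusted p = 0.125 and 0.11), the first also with 16 bases or more (adjusted p = 0.0532) and the second with only the 6 libraries compared (adjusted p = 0.0818). The form with C84T, tcgAatcccatcctcgtcgcT, stood at 624 ± 181, 705 ± 142 and 1154 ± 536 (SD, n = 3) and was not called (0.63 against high fat diet, limma-voom adjusted p = 0.221, and -0.24 when scaled by total reads).

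The reference forms from position 64 were the most abundant GCT fragments. The form to position 85, tcgAatcccatcctcgtcgcca, stood at 1334, 1352 and 1109 on the normal diet, 934, 1188 and 982 on the high fat diet, and 2505, 1271 and 1818 with SalB. SalB libraries lay above high fat diet libraries (log2 fold change 0.80, SE 0.32, limma-voom adjusted p = 0.0704), and the call was made without SalB replicate 2 (1.11, adjusted p = 0.0218). Scaling by total reads turned the value to -0.062. The form to position 84, tcgAatcccatcctcgtcgcc, stood at 1823, 1633 and 1364, then 934, 1014 and 1037, then 1561, 1254 and 1818. It was lowest on the high fat diet without overlap, with a log2 fold change of -0.67 against normal diet (SE 0.28, limma-voom adjusted p = 0.384), and had the smallest p of the serine sequences in that comparison.

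The GCT 5′ fragment gacgaggtggccgagtgg and the AGA/TGA 3′ fragment tcgAatcctgccgactacgcca came next in order of p (limma-voom adjusted p = 0.402 and 0.449). The first stood at 338, 1211 and 500.2 on the normal diet, 277, 377 and 236 on the high fat diet and 254, 305 and 154 with SalB. The second stood at 244, 394 and 264, then 146, 232 and 146, then 109, 119 and 179. For both, SalB libraries lay below all normal diet libraries, with log2 fold changes of -1.22 (SE 0.49, limma-voom adjusted p = 0.0713) and -1.09 (SE 0.44, adjusted p = 0.0685).

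Both tested fragments from position 68 were lower in the means of the SalB group than in those of both other groups. The AGA/TGA fragment atcctgccgactacgcca stood at 714, 817 and 818 on the normal diet, 423, 608 and 437 on the high fat diet and 490.2, 491 and 128 with SalB. Its log2 fold change of SalB against normal diet was -1.18 (SE 0.44, limma-voom adjusted p = 0.0541), without overlap. The GCT fragment atcccatcctcgtcgcca stood at 301 ± 58.1, 241 ± 44.9 and 147 ± 92.5 (SD, n = 3), with no call in any comparison. As a share of GCT 3′ reads, those from position 68 made up 5.07%, 3.38% and 2.33% with SalB. In the other libraries they made up 8.09% to 11.4%, without overlap, but this share was not tested. The AGA/TGA share from position 68 had means of 56.8%, 56.4% and 55.7%, with overlapping groups (exact permutation, adjusted p = 0.993 over 9 measures). GCT 3′ reads from position 64 made up 88.1 ± 1.43%, 86.9 ± 1.14% and 90.4 ± 3.00% of their set. That test did not pass (exact permutation p = 0.154, adjusted 0.461 over 9 measures).

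The other tested 5′ sequences were those of AGA/TGA and CGA. The AGA/TGA form gtagtcgtggccgagtgg stood at 395, 648 and 555 on the normal diet, 248, 377 and 255 on the high fat diet, and 526, 9656 and 154 with SalB. Without SalB replicate 2 its value against the normal diet turned from 0.93 to -0.65. The CGA form gtcacggtggccgagtgg stood at 283 ± 130, 249 ± 136 and 203 ± 163 (SD, n = 3), and was not called. The AGA/TGA form of 16 bases and the GCT form with A85G, with 104 and 87 reads, did not pass the filter.

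Mismatches at the T-loop adenosine were counted in reads that cross it, since a methylated base can be misread by reverse transcriptase. They numbered 5 of 326, 10 of 200 and 6 of 553 reads on the normal diet, 3 of 279, 2 of 172 and 2 of 229 on the high fat diet, and 0 of 524, 0 of 324 and 0 of 283 with SalB. No SalB library had such a read, and every other library did. The exact permutation test over 280 partitions gave p = 0.00714, and 0.0643 adjusted over 9 measures, so the difference did not pass. The counts of 0 allow shares of up to 0.573%, 0.926% and 1.06% in the SalB libraries, by counting error only, against 0.873% to 5% measured elsewhere. Without normal diet replicate 3 the adjusted p was 0.0321, and without SalB replicate 2 it was 0.177. The other measures of the 9 (ends, starts, mismatches at the first and last base, and reads of 30 bases or more) had adjusted p from 0.461 to 0.993. Reads of 30 bases or more made up 1.28 ± 0.122%, 0.814 ± 0.152% and 1.46 ± 0.805% (SD, n = 3), and passed only without SalB replicate 2, where the SalB mean was 1.92% (exact permutation, adjusted p = 0.0321).

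Long-variable-arm tRNAs as a list held 13 family sums that passed the filter, 4 of serine, 8 of leucine and 1 of selenocysteine. For SalB against high fat diet 3 rose, all of leucine, and 0 fell (30.1% and 3.88% of all sets). The median log2 change was 0.82 in the list and 0.62 over all sets. For SalB against normal diet 1 rose and 1 fell, both of leucine (31.1% and 5.83% of all sets). No member of the list was called for high fat diet against normal diet (limma-voom). Over the 9 libraries, the isotype sums most like the serine total in log2 CPM were the precursors of leucine (Pearson r = 0.91) and alanine (0.89), mature glutamate (0.86), selenocysteine (0.84) and the precursors of isoleucine (0.83), of 55 sums compared. Without SalB replicate 2 these values fell to between 0.22 and 0.62, so that the likeness rests on that library.

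Between replicates, serine sequences with at least 10 reads in a pair differed by more than sampling noise on the normal diet (chi-square per degree of freedom 1.78 to 2.86) and with SalB (2.68 to 23). The high fat diet libraries agreed within sampling noise over their serine sequences (0.399 to 0.724 over 13 to 15 sequences). Over all sequences their values were 2.30 to 2.41, so they are separate libraries, and they were counted as 3 samples.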

How the data were processed

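Per the labels' protocols, the 9 libraries of small serum RNA were prepared with a tRF and tiRNA kit. The submitters' processing notes name FastQC, cutadapt, Bowtie, edgeR and mm10, without versions or roles. The deposited files are alignment lists to tRNA references (read name, strand, reference, offset, sequence, mismatches) made by the authors, with no column of measurements. The read count of each distinct sequence stands inside its name in the deposited lists. A test of the files showed reads of 14 to 40 bases with at most 1 mismatch. Depth ran from 28191 to 156333 tRNA reads a library, which is not the depth of the whole library.

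Each read was counted once. limma-voom (limma 3.58.1, R 4.3.3) was fitted over all features of 4 tables (56 isotype sums, 103 anticodon sets, 94 sums by origin, 733 sequences) with all 9 libraries and Benjamini-Hochberg adjustment at 0.05. Packages for count columns were not used, because the counts stand in read names. Scaling by trimmed means of M values came from its definition. A feature was tested where 3 libraries held what 10 reads are at a depth of 44415 (the median) and all libraries held 15 reads. In data simulated for the 733 sequences, 71%, 76% and 72% of 4-fold and 13%, 13% and 20% of 2-fold changes were recovered (in the order high fat against normal diet, then SalB against the high fat diet and against the normal diet), and 4.55%, 5.32% and 7.07% of calls were false. The simulated libraries shared 1 dispersion of 0.15. In the data, SalB replicate 2 differed from SalB replicates 1 and 3 by a chi-square per degree of freedom of 31.0 and 28.9 over all sequences. The simulated rates do not carry over to libraries with such a spread. Shares and ratios were tested by exact permutation over 280 partitions, anticodons within libraries by exact sign flips, all two-sided (Python 3.11.15, scipy 1.17.1).

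Named were sets with at least 15 reads, the 12 serine sequences of highest mean level, all called ones and, where none was called, the 3 of smallest p. The TGA, GGA and longer AGA/TGA and GCT sequences were added after their values were seen. Members, lists and tests were chosen with earlier results of these data known. Alternatives are given in the closing section.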

Additional observations from a re-analysis of the deposited data

Results flagged for a closer look

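Groups stood apart in some serine reads outside the members. Reads on mitochondrial serine tRNAs, mature and precursor summed, stood at 69635 ± 33340 normalised CPM with SalB (SD, n = 3). They stood at 13143 ± 3973 on the normal diet and 14724 ± 2058 on the high fat diet. Every SalB library lay above every library of both other groups. In each of these comparisons 50% of isotype sums did not overlap. Reads that aligned to serine and to another tRNA, mostly phenylalanine, stood at 2267 ± 26.7 on the high fat diet against 1929 ± 258 on the normal diet, again without overlap, as in 17.9% of isotype sums. These reads were in no comparison of serine fragments, and the differences were not tested.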

How the results depend on the processing

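Scaling by total reads in place of trimmed means moved the median of all isotype sums from 0.80 to -0.07 for SalB against high fat diet, and with it most values against SalB. The share of calls that were higher fell from 95.8% to 43.75% for isotype sums, 88.6% to 29.6% for sets, 76.3% to 30.8% for origins and 55.1% to 16.3% for sequences in that comparison (against normal diet from 96.8% to 42.9%, 84.2% to 38.1%, 79.6% to 35.3% and 55.4% to 20.7%). With total reads the serine total was 0.085 for SalB against high fat diet and -0.34 against normal diet. Log2 values turned for SalB against high fat diet in GCT (-0.29), CGA (-0.59), TGA (-0.27), 3′ fragments (-0.31), and the GCT sequences from 64 to 85 (-0.062), to 84 (-0.25) and with C84T (-0.24). Against normal diet they turned in GCT (-0.61), AGA/TGA (-0.49), TGA (-0.33), 5′ (-0.53), 3′ (-0.64) and internal fragments (-0.072), and the GCT sequences from 64 to 85 (-0.29) and with C84T (-0.0057). C84A turned for high fat against normal diet (0.018, and 0.024 with only the 6 libraries compared). The cause was not tested.

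The serine total for SalB against high fat diet was no longer called with no filter (0.97), only the 6 libraries (0.87), no mismatch (0.96) or any serine alignment (0.81). It ran from 0.62 to 1.31 when single libraries were left out, and from 0.16 to 0.85 against normal diet. Calls of sets were 2 with no filter and 1 with limma on log2 values for SalB against high fat diet (0 to 1 without single libraries), 1 with total reads and 1 with no filter against normal diet, and 1 with only 6 libraries for high fat against normal diet. Calls of origins were 0 with total reads, no filter or only 6 libraries in both SalB comparisons (0 to 2 and 0 to 1 without single libraries). Calls of sequences for SalB against high fat diet were 2 with total reads, 6 with no filter, 0 with 16 bases or more and 0 with no mismatch (0 to 2 without single libraries). Against normal diet they were 4, 3, 4 and 0 under the same settings, 0 with only 6 libraries and 2 with limma on log2 values (0 to 3 without single libraries). With no mismatch, 3′ fragments of SalB against normal diet turned to -0.025.

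Without single libraries, log2 values of SalB against high fat diet spanned -0.027 to 1.86 in AGA/TGA, -0.17 to 0.60 in CGA, -0.72 to 0.12 in AGA/TGA 68 to 85, -0.50 to 0.066 in GCT 1 to 18 and -0.84 to 0.28 in CGA 1 to 18. Against normal diet they spanned -0.73 to 1.15 in AGA/TGA, -0.77 to 0.045 in CGA, -0.70 to 1.17 in 5′ and -0.029 to 0.33 in 3′ fragments, -0.65 to 2.23 in AGA/TGA 1 to 18, -0.27 to 0.18 in GCT 64 to 84 and -0.998 to 0.14 in CGA 1 to 18. For high fat against normal diet they spanned -0.30 to 0.10 in TGA, -0.043 to 0.34 in C84T, -0.29 to 0.30 in C84A and -0.62 to 0.11 in CGA 1 to 18.

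The shares and ratios below are SalB minus high fat diet. Their test is the permutation over all 3 groups, since 3 libraries against 3 cannot pass. It passed for the serine share of nuclear reads with 16 bases or more (difference 0.961 points), for serine to other reads, from the same counts, likewise (0.77 on the log2 scale), and for the GGA share with no mismatch (0.918 points). Serine to leucine in internal reads was 0.022 with no mismatch. Without single libraries the shares spanned 0.589 to 1.13 points (serine of nuclear reads), -0.920 to 0.0535 (TGA), -6.67 to 19.4 (5′), -19.6 to 4.28 (3′), -0.969 to 2.39 (internal), -15.2 to 10.1 (GCT), -8.29 to 17.6 (AGA/TGA) and -8.29 to 1.41 (mismatch). The log2 ratios spanned 0.57 to 0.97 (to other reads), 0.71 to 0.97 (to leucine) and 0.36 to 1.54 (to leucine, 5′). The 5′ share of GCT minus TGA spanned 3.69 to 8.45 points. Alternatives for measures between anticodons and within groups were chosen after seeing the data. Among these, AGA/TGA reads from position 68 turned to 1.42 with 16 bases or more and 1.71 with no mismatch (-5.32 to 7.21 without single libraries), GCT reads to position 85 to 0.652 with no mismatch, and GCT reads from position 64 to -4.16 with each sequence counted once. AGA/TGA reads ending at 18 spanned -15.2 to 1.67 and last-base mismatches -6.24 to 5.15. With no mismatch allowed, measures of mismatches have no value.

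No pairing of the samples by replicate number was seen. Deviations of same-numbered libraries correlated between -0.297 and 0.161, and those of libraries with different numbers between -0.267 and 0.262. With the replicate block the serine total for SalB against high fat diet was 0.94 (limma-voom adjusted p = 0.0251). The block moved the sequences called for SalB against normal diet from 1 to 2, adding the GCT 5′ sequence from 1 to 18 (adjusted p = 0.0311), and changed no other call.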
